A study of Caenorhabditis elegans with 2 samples.

Results

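The genes described here are the cuticle collagen genes of Caenorhabditis elegans, chosen by name as the nuclear protein-coding genes called col, sqt, rol or bli. They number 169 of the 19973 nuclear protein-coding genes of the annotation, with 156 col genes, 3 sqt, 4 rol and 6 bli genes. The other 19804 genes served for comparison. The annotated translation held at least 10 Gly-X-Y triplets, the repeat that makes a protein a collagen, in 164 of the 169 genes, with a median of 49 triplets and a median length of 304 residues. The 5 genes below that number were bli-3, a dual oxidase, bli-4, a furin-type endoprotease, bli-5, a Kunitz-type protein, rol-3, a receptor-kinase-like protein, and col-17, whose annotated translation held 0 triplets.

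Binding of HLH-8, the Twist-family basic helix-loop-helix factor of the worm, was measured by chromatin immunoprecipitation sequencing (ChIP-seq). Whole late hermaphrodite embryos of strain OP63 were taken 3.5 hours after bleaching, and all of them carried HLH-8 fused at its C terminus to a GFP-FLAG tag, which the anti-GFP antibody binds. The 2 biological replicates form 1 group of this single transgenic line, so no untagged or untreated group is compared; control libraries were not used here. The sources used here do not say which promoter drives the fusion or whether an untagged copy of HLH-8 remains, and whole embryos do not show in which cells a site was bound.

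Cuticle collagens are secreted by the epidermis and cross-linked into the exoskeleton, which is made anew before each moult. The chains form triple helices through their Gly-X-Y repeats, are trimmed by the protease BLI-4 and are cross-linked with the help of the oxidase BLI-3. Mutations in sqt, rol and bli genes give squat, rolling or blistered worms. HLH-8 is known mainly from the mesoderm, where it acts in the M lineage and in non-striated muscle, and Twist-family factors bind E-boxes, the 6-base words CANNTG.

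A gene was given each peak whose summit lay in its window, which starts 2000 bp before the 5′ end of the gene and stops 500 bp after it. The optimal list holds the 1120 peaks that passed the reproducibility step of the submitters. The pooled candidate list holds 25904 peaks together with background, and the replicate candidate lists hold 24268 and 23945. A candidate alone is therefore not a called peak. A signal is the peak value deposited by the authors, in an arbitrary unit. Optimal signals ran from 57.4 to 1132 with a median of 79.6, and pooled candidate signals had a median of 17.1.

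The sequences shown first are those at the optimal peaks, followed by those at candidates in collagen coding exons, since the results turn on both. The first set gives 101 bp of the plus strand of ce11 around the summits of the strongest peak in each of the 4 collagen gene windows with an optimal peak. Capitals mark the bases of an annotated tRNA or snRNA gene. The stretches are chrII:12494701-12494801 for col-85, chrIII:10989617-10989717 for col-94, chrX:13511926-13512026 for col-185 and chrII:3502779-3502879 for col-71.
col-85: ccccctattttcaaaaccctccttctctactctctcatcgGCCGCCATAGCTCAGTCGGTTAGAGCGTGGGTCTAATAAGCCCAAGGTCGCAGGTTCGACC
col-94: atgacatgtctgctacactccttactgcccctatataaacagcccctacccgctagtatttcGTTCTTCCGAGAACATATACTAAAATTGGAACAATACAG
col-185: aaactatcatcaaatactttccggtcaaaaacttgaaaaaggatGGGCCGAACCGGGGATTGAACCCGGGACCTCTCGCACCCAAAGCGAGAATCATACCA
col-71: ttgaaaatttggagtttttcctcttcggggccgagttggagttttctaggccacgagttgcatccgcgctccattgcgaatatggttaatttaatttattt
The tRNA gene filled 61 of the 101 bases at col-85 and 57 at col-185, and the snRNA gene filled 39 at col-94. The stretch at col-71 touched no such gene.

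The second set gives 101 bp around summits inside collagen coding exons, on the strand of the gene, with glycine codons in capitals. It holds col-90 and col-176, with the strongest and the third strongest coding candidate among the collagen genes, and col-135, with the strongest coding candidate inside a window. The genes col-90 and col-176 were chosen after their values were seen. The stretches are chrIII:7949294-7949394 for col-90 and chrX:10078226-10078326 for col-176, both on the plus strand, and chrIV:15131324-15131424 for col-135 on the minus strand.
col-90: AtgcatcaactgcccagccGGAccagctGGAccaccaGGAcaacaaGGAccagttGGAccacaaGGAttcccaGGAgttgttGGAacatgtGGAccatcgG
col-176: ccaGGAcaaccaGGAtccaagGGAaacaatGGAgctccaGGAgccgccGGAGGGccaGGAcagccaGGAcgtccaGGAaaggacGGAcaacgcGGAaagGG
col-135: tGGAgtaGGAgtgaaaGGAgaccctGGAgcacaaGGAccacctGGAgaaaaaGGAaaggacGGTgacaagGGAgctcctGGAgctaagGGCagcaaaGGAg
Glycine codons made up 11 of 35 codons at col-90, 13 of 34 at col-176 and 12 of 35 at col-135, codons that reach past the edges included. The GC content of these stretches was 56.4% at col-90, 63.4% at col-176 and 55.4% at col-135.

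Few collagen genes had an optimal HLH-8 peak in the window. An optimal summit lay in 4 of 169 windows (2.37%), beside 1079 of 19804 other genes (5.45%) and a background over all genes of 5.42%. The 4 genes were col-85, col-94, col-185 and col-71, all of the col family, and no sqt, rol or bli window held an optimal summit. In 3 of the 4 genes (75%), every optimal peak lay within 500 bp of a tRNA or snRNA gene. That held for 90 of the 1079 other genes with an optimal peak (8.34%), counting tRNA, snoRNA, snRNA and rRNA genes. With peaks near such genes set aside, 1 collagen gene (0.592%) and 4.99% of other genes kept an optimal peak, with a background of 4.96%. These are descriptive counts without a test, because the genes were proposed with earlier results of these data known and neighbouring genes share peaks.

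The strongest peak in a collagen window lay at col-85, on chromosome II at 12494652 to 12494827 in ce11. Its pooled signal was 141.4, rank 113 of the pooled list. The replicate signals were 62.8 and 77.8, with a mean of 70.3 ± 10.6 (SD, n = 2). The summit lay 344 bp downstream of the 5′ end, in an intron of col-85 and inside the tRNA-Ile gene T21B4.t1, which spans 12494741 to 12494814 on the plus strand. The collagen gene lies on the opposite strand, and the nearest 5′ end of another protein-coding gene, T21B4.3, was 2330 bp away.

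The window of col-94 on chromosome III held 2 optimal peaks beside the snRNA gene W05B2.8, which spans 10989679 to 10989780. The stronger peak spanned 10989529 to 10989829, 1794 bp upstream of col-94, with a pooled signal of 129.5 and its summit 12 bp from the snRNA gene. Its replicate signals were 46.01 and 86.1 (mean 66.1 ± 28.3, SD, n = 2), the widest gap between replicates among the 4 genes. The second peak, at 10989644 to 10990087, had a pooled signal of 72.3 and its summit 86 bp from the snRNA gene. Its nearest candidate in replicate 1 was the same one as for the first peak, at 46.01, and its signal in replicate 2 was 30.4. Both summits also lay inside dhc-4, a dynein heavy chain gene on the opposite strand, and no 5′ end was nearer than that of col-94, with col-93 next at 4058 bp from the stronger summit.

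The peak of col-185 on chromosome X, at 13511950 to 13512077, lay 879 bp upstream with its summit inside the tRNA-Pro gene H06A10.t1, at 13511970 to 13512041. Its pooled signal was 97.5, and the replicate signals of 46.04 and 45.8 were close together (mean 45.9 ± 0.182, SD, n = 2). The next nearest protein-coding 5′ end, of H06A10.1, was 4443 bp away.

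The peak of col-71 was the 1 optimal peak of a collagen window away from such RNA genes. It lay on chromosome II at 3502607 to 3503050, 259 bp upstream of col-71 and 139 bp from the 5′ end of Y49F6B.2, which runs the other way and encodes a protein with an Fcf2 pre-rRNA processing domain. Its pooled signal was 87.2, with 39.0 and 47.0 in the replicates (mean 43.0 ± 5.604, SD, n = 2). Counting each peak only for its nearest 5′ end and leaving out peaks near the RNA genes therefore left 0 collagen genes and 627 other genes (3.17%). None of the E-box classes lay within 50 bp of any of the 5 optimal summits in collagen windows.

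Having a tRNA, snoRNA, snRNA or rRNA gene in the window was about as frequent for collagen genes as for others, at 5 genes (2.96%) against 508 (2.57%). Of those 5 collagen genes, col-85, col-94 and col-185 had the optimal peak. The other 2, named after their values were seen, were col-54 and col-155, whose strongest candidates had signals of 13.8 and 11.97. Of the 508 other genes, 111 (21.9%) had an optimal peak. Where the window held no such RNA gene, 1 of 164 collagen genes (0.610%) and 5.02% of other genes had one. The part of the RNA genes in these peaks was not tested.

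**Figure D1:**
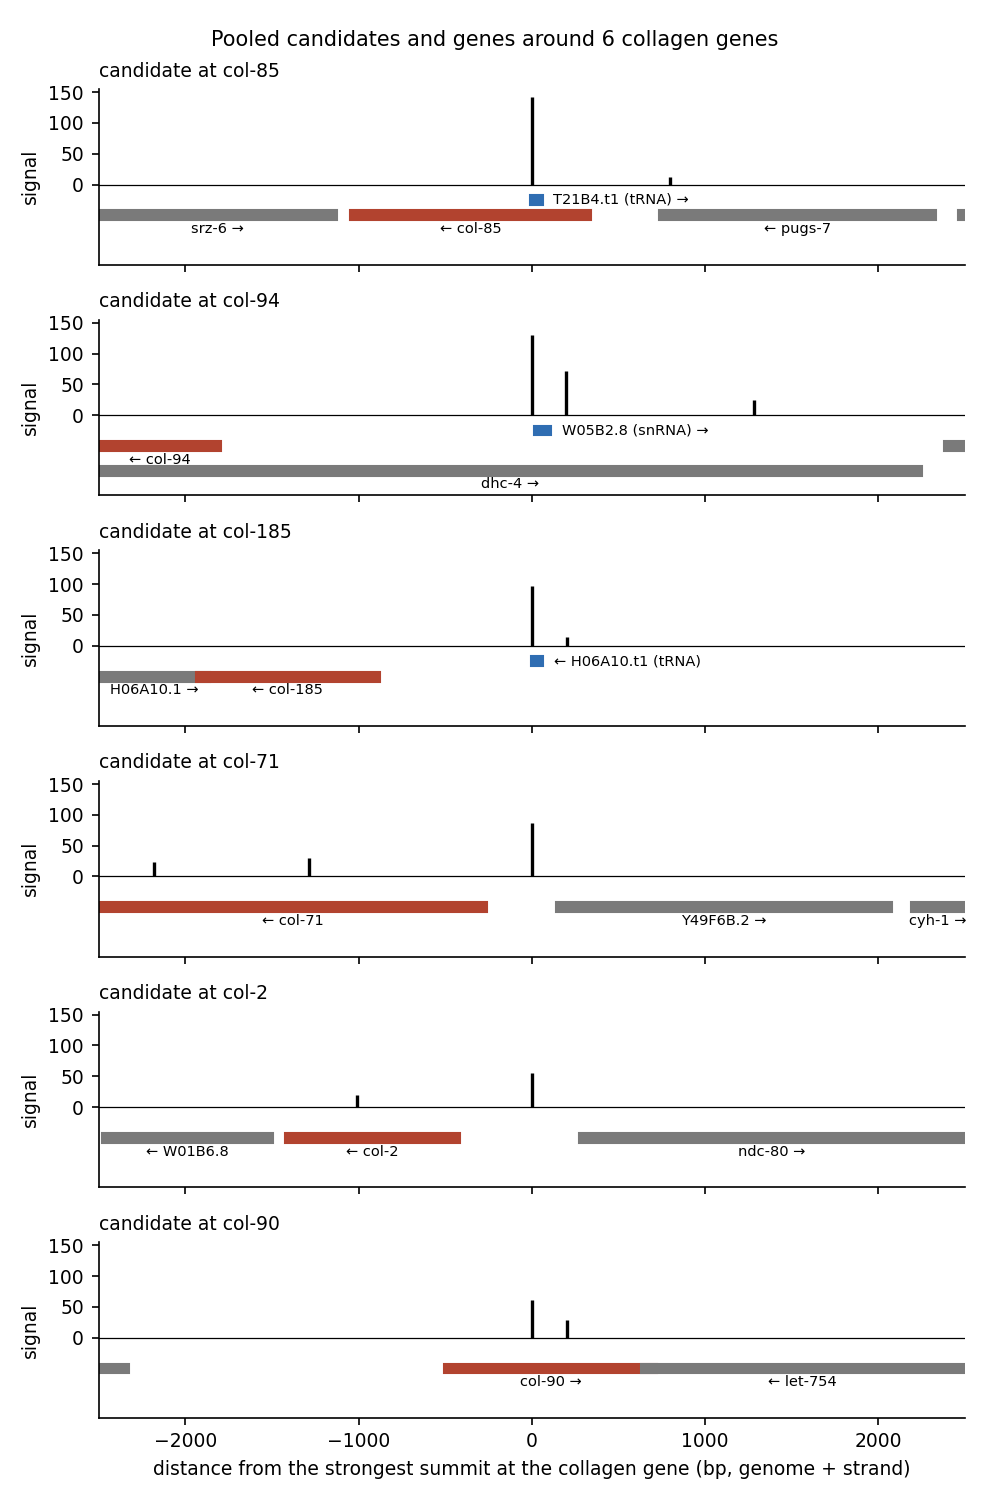
Pooled candidates (vertical lines, height in the arbitrary signal unit) and genes (boxes, arrows give the strand) around 6 collagen genes, by distance in bp from the strongest summit. Red boxes are collagen genes, blue boxes tRNA or snRNA genes and grey boxes other protein-coding genes. The tallest lines stand on or beside a tRNA or snRNA gene at col-85, col-94 and col-185, between divergent genes at col-71 and col-2, and inside the gene at col-90.

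The threshold of the optimal list fell between col-71 and col-2. The strongest candidate of col-2 had a pooled signal of 54.8, just under the lowest optimal signal of 57.4, with 25.7 and 27.2 in the replicates (mean 26.5 ± 1.06, SD, n = 2). It lay 415 bp upstream of col-2, but only 271 bp from the 5′ end of ndc-80, a kinetochore gene, and held the E-box CAATTG. Among optimal peaks, 1 fell just past the edge of a collagen window. The optimal peak of col-90, with a pooled signal of 60.9 and replicate signals of 31.1 and 27.8 (mean 29.5 ± 2.35, SD, n = 2), had its summit 506 bp downstream of the 5′ end, in a coding exon and just past the 500 bp limit. The site held CAACTG and CACATG and CAGCTG. In replicate 1 the matching summit lay at 488 bp, inside the window, so that col-90 joined the same 4 genes among the 1120 strongest candidates of replicate 1. The 1120 strongest candidates of replicate 2 gave the 4 genes alone.

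A pooled candidate of any strength lay in 77 of 169 collagen windows (45.6%), beside 50.7% of other windows and a background of 50.7%. In replicate 1 the count was 81 (47.9%, background 49.7%) and in replicate 2 it was 73 (43.2%, background 49%). A candidate in both replicate lists was found for 52 collagen genes (30.8%) and 33.8% of other genes. No candidate in any of the 3 lists was found for 61 collagen genes (36.1%) and 32.4% of others.

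The shares of collagen and other genes were also compared by candidate rank. With the 200 strongest candidates they were 1.18% and 1.11%, and with the 560 strongest they were 2.37% and 2.90%. With the 2500 strongest candidates, 7 collagen genes (4.14%) and 10.4% of others had one, and with the 5000 strongest, 18 (10.7%) and 17.5%. With 10000 candidates the shares were 18.9% and 27.7%, and with 20000 they were 36.1% and 43.1%. The median signal of the strongest candidate was 17.98 over the 77 collagen genes and 20.4 over other genes with one. Of the 77, 12 exceeded 30 and 47 were under 20. The same counts for other genes are not given here, so these 2 describe the collagen genes alone.

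**Figure D2:**
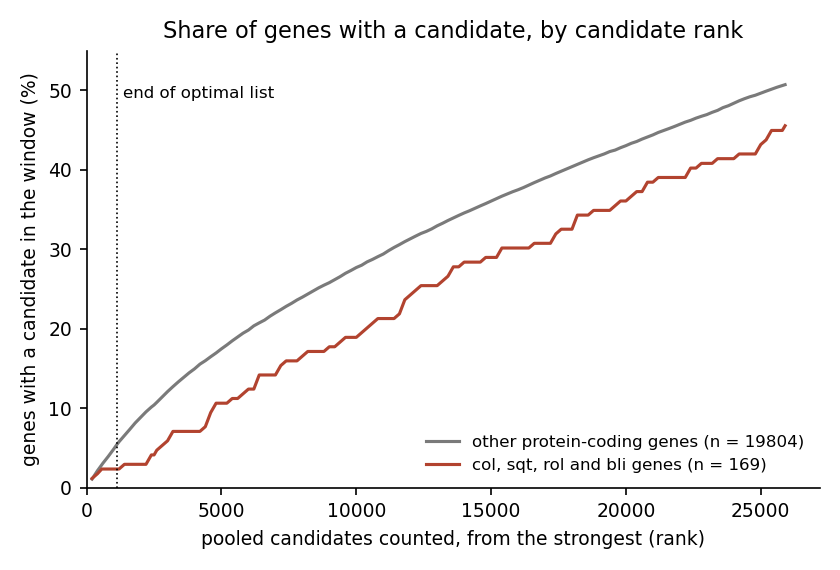
Share of genes (%, vertical axis) with a candidate in the window as the pooled candidates are counted from the strongest (rank, horizontal axis), for 169 collagen genes (red) and 19804 other genes (grey). The dotted line marks the 1120 peaks of the optimal list, where the shares were 2.37% and 5.45%, and over all candidates they were 45.6% and 50.7%.

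Among the genes outside the optimal list, bli-4, which encodes the procollagen-trimming protease, came after col-2 with a pooled signal of 39.6, 323 bp upstream. Its replicate signals were 22.2 and 17.1, and the site held CACATG. The candidate of bli-3, the oxidase gene, had a pooled signal of 32.9 and lay 1004 bp upstream, with 11.9 and 18.8 in the replicates. Both enzyme genes thus had a candidate in each replicate, below the lowest optimal signal.

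The candidate of sqt-1, a collagen whose mutants are squat or roll, had a pooled signal of 35.0 and replicate signals of 21.7 and 16.1. Its summit lay 362 bp downstream in a coding exon, next to CACATG and CAGATG. The candidates of sqt-2 (19.0, 229 bp upstream) and sqt-3 (18.9, 228 bp downstream) were matched in replicate 1 only, at 17.6 and 12.9. The blister genes bli-6 (36.5) and bli-1 (24.7) had their strongest candidates nearer to another gene, hrpf-2 at 221 bp and col-80 at 639 bp, and both were matched in replicate 2 only, at 24.0 and 15.5. The window of rol-3 held 1 weak candidate (12.1) matched in neither replicate. For bli-2, bli-5, rol-1, rol-6 and rol-8 the pooled list had 0 candidates in the window. The windows of bli-2 and bli-5 held 1 candidate in each replicate list, that of rol-8 held 1 in replicate 2, and those of rol-1 and rol-6 held none, like that of col-17.

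The other col genes among the 15 with the strongest candidates had pooled signals from 27.2 to 38.4. The highest was col-135, which holds the most Gly-X-Y triplets of all, 198, with 14.1 and 20.3 in the replicates at a summit 423 bp downstream in its coding exon. For col-48 the candidate lay 93 bp upstream with a pooled signal of 33.4 and replicate signals of 15.2 and 17.6. The candidates of col-65 (32.8; 11.8 and 19.4 in the replicates) and col-63 (27.7; 15.04 and 16.9) lay 418 and 503 bp upstream. Those of col-44 (27.5, replicate 2 only at 22.5) and col-149 (27.2; 13.8 and 15.2) were nearer to a neighbouring collagen gene, col-9 and col-150.

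**Figure D3:**
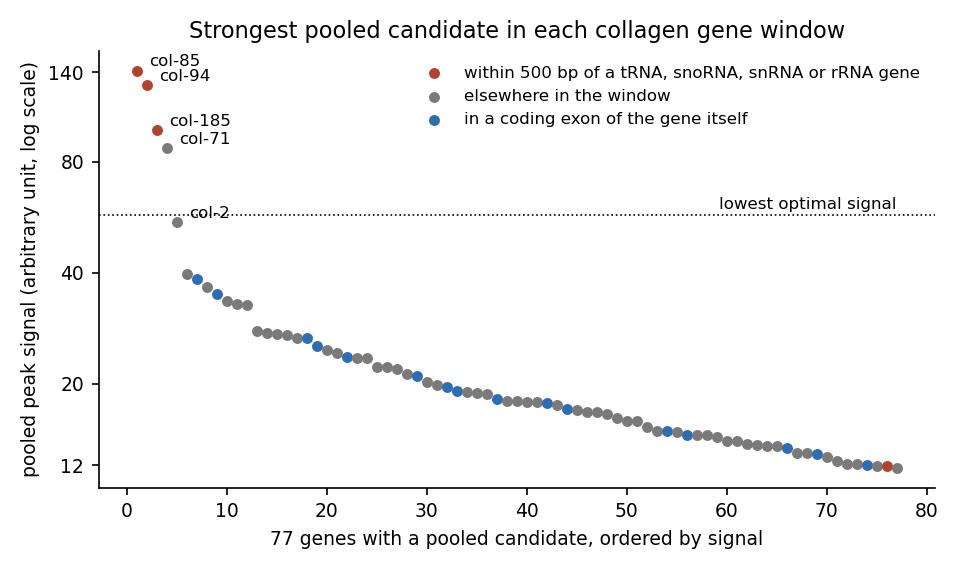
Pooled signal (arbitrary unit, log axis) of the strongest candidate in each of the 77 collagen windows that held one, in order of signal. Colours give the place of the summit, and the dotted line marks the lowest optimal signal, 57.4. The 3 highest points lie near a tRNA or snRNA gene, and col-2 lies just under the line.

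Many of these sites were found in 1 replicate alone. Of the 77 strongest candidates, 25 had a candidate within 200 bp in both replicates, 20 in replicate 1 only, 20 in replicate 2 only and 12 in neither. The same split for the strongest candidates of other genes is not given here. Where both had one, the median log2 ratio (replicate 2 over replicate 1) was 0.08 with an SD of 0.49, with 14 higher in replicate 2 and 11 in replicate 1. Of all 111 distinct candidates in collagen windows, 30 (27.0%) were matched in both replicates, beside 37.3% of the 11369 in other windows. Of the 111, 24 (21.6%) also lay in the window of a gene outside the collagen families.

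Candidates of collagen genes were placed differently within the window from those of other genes. In the 250 bp just upstream of the 5′ end there were 7.10 candidates per 100 collagen genes and 13.5 per 100 other genes. From 250 to 500 bp upstream the values were 11.2 and 10.4. Downstream, the first 250 bp held 4.14 and 7.43, and the next 250 bp held 11.2 and 5.40. Past the window the difference grew, and the stretch from 500 to 750 bp downstream held 32.0 candidates per 100 collagen genes and 5.47 per 100 others. From 1000 to 1250 bp the values were 17.2 and 5.46. Collagen genes are short, with a median length of 1228 bp against 2038 bp, so these stretches cover much of their coding sequence.

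**Figure D4:**
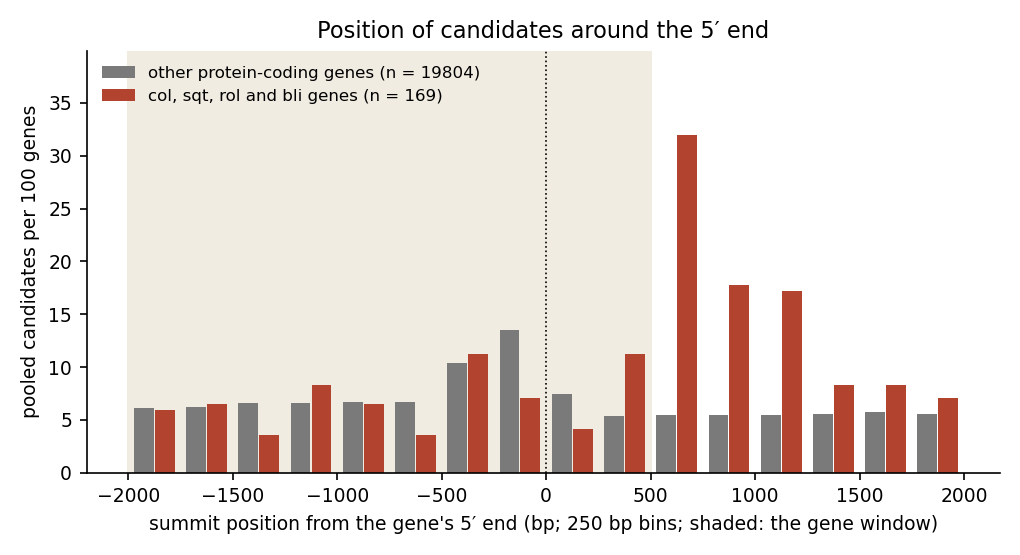
Pooled candidates per 100 genes in 250 bp bins by summit position from the 5′ end (bp), for 169 collagen genes (red) and 19804 other genes (grey), with the gene window shaded. Collagen genes have the lower bar just upstream of the 5′ end, 7.10 against 13.5, and the highest bar of the plot from 500 to 750 bp downstream, 32.0 against 5.47.

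Counted over whole genes, candidates lay in the coding exons of most collagen genes. A pooled candidate lay in a coding exon of its own gene for 113 of 169 collagen genes (66.9%) and for 3953 other genes (19.96%), with a background of 20.4%. Of the 113, 112 encode Gly-X-Y repeats, beside 164 of all 169 genes. The exception was rol-3, whose coding candidate lay 66 bp from a tRNA, snoRNA, snRNA or rRNA gene. Coding exons of collagen genes held 148 candidates in 179.0 kb, or 8.27 per 10 kb, and those of other genes held 2.11 per 10 kb. In replicate 1 the values were 7.49 and 2.11, and in replicate 2 they were 6.26 and 1.92, so both replicates showed the difference. Of the 148 candidates, 69 (46.6%) were matched in both replicates, beside 21.9% of those in other coding exons, and their median signals were 20.8 and 15.99. The optimal list held 1 of the 148, the peak of col-90. An E-box class lay within 50 bp of 86 of the 148 summits (58.1%) and of 43.4% of those in other coding exons. The same share for coding sequence without a candidate is not given here. The 2 sets of coding exons also differ in GC content, at 53.3% and 42.8%, so the E-box shares may describe the sequence and not the candidates.

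Within collagen coding sequence, candidates lay mostly in the repeats. The bases that encode runs of at least 3 Gly-X-Y triplets came to 72.9 kb and held 108 of the 148 candidates, 14.8 per 10 kb. The other coding bases of the same genes came to 106.1 kb and held 40, or 3.77 per 10 kb. The strongest candidates after col-90, all named after their values were seen, were those of col-60 (40.3; 25.5 and 14.9 in the replicates) and col-176 (39.3; 23.1 and 15.6). Of the roller collagens with none in the window, rol-1 had a coding candidate 2913 bp downstream (32.0, with 20.7 and 10.4 in the replicates). The gene rol-6 had one at 575 bp (25.1, replicate 2 only at 25.6), and rol-8 had no coding candidate.

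GC content moved with these counts. The bases of the repeats had a GC content of 60.4%, the other coding bases of collagen genes 48.4%, and coding exons of other genes 42.8%. Coding bases were therefore sorted by the GC content of the 101 bp around them. Where it was 60% or more, collagen genes held 15.04 candidates per 10 kb (69 candidates) and other genes 14.8 (208 candidates), nearly the same density. From 50 to under 60% the values were 10.2 and 5.98, from 40 to under 50% they were 2.84 and 2.05, and under 40% they were 1.498 and 1.21. Of all coding bases, 25.6% were in the highest class in collagen genes and 0.573% in other genes. As for mapping, a median of 100% of the 31-base words around the strongest coding candidate of each collagen gene occurred once in the genome. Over whole windows the median was 98.2% for collagen genes and 99.7% for others. The part of GC content in the candidates was not tested.

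**Figure D5:**
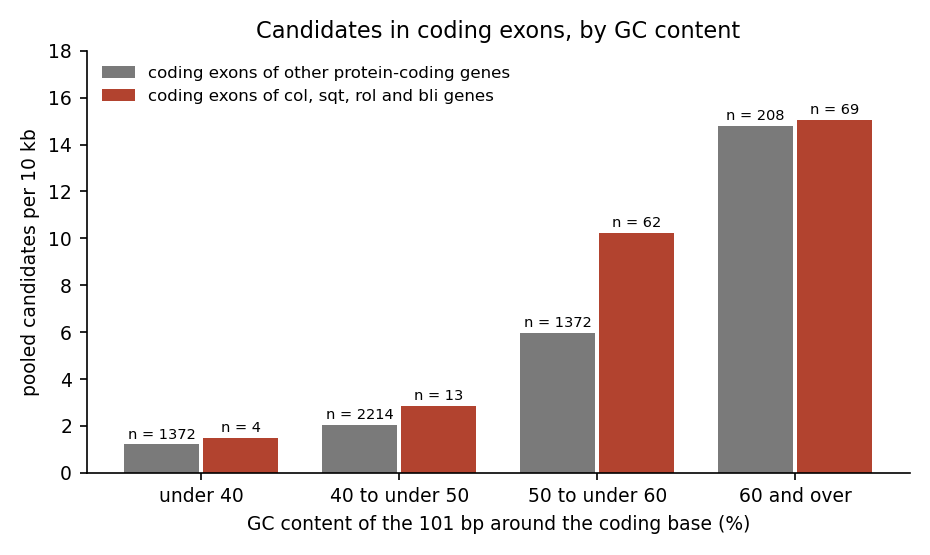
Pooled candidates per 10 kb of coding exon by GC content of the surrounding 101 bp (%), for collagen genes (red) and other genes (grey), with the number of candidates above each bar. Both rise with GC content, and in the highest class the values are 15.04 and 14.8.

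A window drawn to the 3′ end of the gene, chosen after the values were seen, turned the order of the shares. From 2000 bp upstream to the 3′ end, 79.9% of collagen genes and 62.3% of other genes held a pooled candidate, with a background of 62.4%. Optimal summits in the same stretch were still fewer for collagen genes, at 6 (3.55%) against 6.44% of others, with a background of 6.42%. The 2 genes added were col-90 and col-99. The peak of col-99, named after its values were seen, lay inside the tRNA gene F29C4.t1, 3876 bp downstream of the 5′ end, with a pooled signal of 81.7 and replicate signals of 39.4 and 45.7 (mean 42.5 ± 4.44, SD, n = 2).

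E-box classes lay within 50 bp of 50 of the 111 candidate summits in collagen windows (45.0%) and of 34.7% of those in other windows. The class CAAATG was at 13.5% and 7.33%, CATATG at 3.604% and 1.88%, CAGATG at 5.41% and 6.30% and CACATG at 4.50% and 4.78%, each counted on both strands. Of the 111 candidates inside collagen windows, those in collagen coding exons held an E-box class in 52.9% of cases (34 candidates, mean GC content 58.3%). Those between genes held one in 41.9% (43 candidates, 37.7%). In other windows, candidates in coding exons of genes outside the collagen families held one in 41.2% (mean GC content 44.3%). Those between genes in other windows held one in 35.4% (40.1%). The 4 genes with CATATG at a candidate, named after their values were seen, were col-120 (signal 23.4), col-68 (16.005), col-121 (15.2) and col-153 (12.9). To show such sites, the stretch at sqt-1, chrII:11337425-11337525, and that at col-120, chrIV:9262655-9262755, are given on the plus strand of ce11 with E-box classes in capitals.
sqt-1: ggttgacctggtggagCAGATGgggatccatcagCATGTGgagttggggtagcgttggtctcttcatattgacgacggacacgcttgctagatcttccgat
col-120: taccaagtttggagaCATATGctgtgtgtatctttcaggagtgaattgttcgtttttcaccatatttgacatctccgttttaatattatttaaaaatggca
A match is a description of the letters and not a sign of binding.

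The promoters themselves, from 250 bp before to 50 bp after the 5′ end, differed from those of other genes in some words and not in others. TATAAA, the core of a TATA box, occurred on either strand in 65.7% of collagen promoters and 37.7% of others. CAGATG was found in 24.9% and 14.1%, CACGTG in 1.18% and 5.86%, CAGCTG in 1.78% and 5.58%, and CATATG in 2.96% and 5.18%. The shares were closer for CAAATG (24.9% and 23.4%), CAACTG (13.0% and 13.4%), CAATTG (12.4% and 11.8%) and CACCTG (9.47% and 8.47%). CAAGTG was at 14.8% and 12.4%, and CACATG at 7.10% and 9.99%. TGATAA, which factors of the ELT family bind, was in 30.8% and 30.2%. A pooled candidate lay in the window of 55 of the 111 collagen genes with TATAAA (49.5%) and of 22 of the 58 without it (37.9%). For other genes the shares were 48.4% with the word and 52.1% without it, and the background over all genes was 50.7%.

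The share of collagen genes with a candidate varied between chromosomes. On chromosome X, 7 of 27 collagen windows (25.9%) and 51.8% of other windows held a pooled candidate, and on chromosome III the shares were 38.5% of 13 and 62.4%. On chromosome IV they were 38.1% of 42 and 47.1%. Collagen genes had the higher share on chromosome I (65.2% of 23 against 62.0%), on chromosome II (61.3% of 31 against 52.8%) and on chromosome V (45.5% of 33 against 38.5%). Genes within 10 kb of another collagen gene, 51 in 21 clusters, had a candidate in 45.1% of cases, and the 118 others in 45.8%. The 5 clustered genes from col-167 to col-171 on chromosome X had no pooled candidate in the window, and col-171 had 1 in replicate 2. In these windows 75.3% to 88.4% of 31-base words occurred once in the genome, and the part of mapping was not tested. All 4 genes of the cluster of col-79, col-39, col-80 and bli-1 on chromosome II had a candidate. Their strongest candidates lay in coding exons of col-79, col-39 and col-80, and col-79 and col-39 shared the same candidate. These clusters were named after their values were seen.

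Lists of related genes were too short for their counts to be read against the backgrounds, 5.42% of all genes for an optimal peak and 50.7% for a pooled candidate, and are given as values. Among 12 further cuticle collagens named dpy or lon, 0 had an optimal peak and 8 a pooled candidate, led by dpy-10 and dpy-2, which share a candidate of 26.3 (12.9 and 14.7 in the replicates), 179 bp upstream of dpy-10. Among 19 genes for collagen processing and cuticle assembly, bli-3, bli-4 and bli-5 included, 0 had an optimal peak and 12 a candidate. The strongest was at pdi-2, a protein disulphide isomerase gene, with a pooled signal of 51.4 at 190 bp upstream and replicate signals of 22.2 and 29.0. Of 6 cuticlins, which are non-collagen cuticle proteins, 0 had an optimal peak and cut-2 had a candidate (18.1). Among 12 epidermal transcription factors, 10 had a candidate and egl-18, a GATA-type factor, had an optimal peak 1257 bp upstream with a pooled signal of 76.5, replicate signals of 29.8 and 44.2, and the E-box CAGATG. The basement membrane collagens, which are not part of the cuticle, had 0 optimal peaks and 3 candidates among 3 genes. The candidate of let-2, a type IV collagen chain, had a pooled signal of 53.8 with 21.9 and 24.7 in the replicates, close under the lowest optimal signal, and held CACATG and CAGATG. That of emb-9, the other type IV collagen chain, had a pooled signal of 19.97 and was matched in replicate 2 only, at 14.1.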

How the data were processed

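The data are peak lists from anti-GFP ChIP-seq of tagged HLH-8 in 2 biological replicates of 1 group, per the labels. Each replicate and the pooled data have a candidate list, made as input for an irreproducible discovery rate step that gave the optimal list, per the file headers and inventories. The sources used here do not name the aligner or peak caller. The deposited signal values are the authors' own, in an arbitrary unit, and it is not stated if depth entered them. The −log10 q values were deposited by the authors too and reach a ceiling, so peaks were ranked by signal. Below the ceiling they fall with signal in the main, though not strictly, to 1.26 at col-63 (pooled signal 27.7), 0.307 at sqt-3 (18.9) and 0.0253 at rol-3 (12.1). Most candidates in collagen windows and coding exons have signals below that of col-63, so shares of genes with a candidate can include background. Read depth is unknown, so no counting interval is given for a signal, and the 2 replicates limit the precision of each value.

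Genes came from Ensembl release 115 and the genome sequence from RefSeq, both of the assembly that matches the ce11 lists, with 1-based coordinates. The ce10 lists were not used. Sequences are from the RefSeq genome, and RNA genes carry RefSeq names. A replicate matched a peak when it had a summit within 200 bp. E-boxes (10 classes of CANNTG) and GC content were counted in 101 bp around summits. A peak was counted in each window it fell in. Calculations used Python 3.11.15, numpy 2.4.6, scipy 1.17.1 and matplotlib 3.10.9. Window assignment, distances to the 5′ end, the E-box search and the triplet count were tested on simulated data. The coding-exon, GC content, replicate-matching and RNA-gene counts were not part of that test.

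The members and gene lists were chosen with earlier results of these data known. No set test was run. Named are, by rule, each member with an optimal peak in its window, the 15 members with the strongest candidate, the sqt, rol and bli genes, from each other list the genes with an optimal peak or else the 2 with the strongest candidate, and the nearest other gene to each optimal peak. Genes outside this rule are marked in the text, apart from dhc-4, ndc-80, hrpf-2, col-80, col-9 and col-150, which were named after seeing the data as hosts or nearest neighbours of candidates. The coding-exon counts were added after seeing the data. The alternatives were other windows, nearest-end assignment, all transcripts, leaving out a replicate or peaks near RNA genes, and other matching distances.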

Additional observations from a re-analysis of the deposited data

How the results depend on the processing

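No paired analysis was possible because there is 1 group and no test between groups. Of 33 alternatives, 18 kept the value within its margin, 14 moved it and 1 turned the order of collagen and other genes. The margin was 1.5 times the value, or for E-box and replicate shares their exact 95% binomial interval. The share of collagen genes with an optimal peak was under that of other genes in all 13 alternatives run. It was 1.18% (others 4.04%) from 1000 bp upstream to 200 bp downstream and 0.592% (3.05%) from 500 bp upstream to 200 bp downstream. It was 0.592% without peaks within 500 bp (4.99%) or 200 bp (5.05%) of RNA genes, and 0% (3.17%) with nearest-end assignment as well. Among genes with a pooled candidate it was 5.19% (10.7%). The share with a pooled candidate was 26.6% (35.6%) and 18.3% (26.4%) in the same 2 shorter windows and 25.4% (32.9%) with the stronger 12952 candidates, and it was above that of other genes, at 79.9% (62.3%), when the window was drawn to the 3′ end of the gene. A single replicate has no optimal list, so its 1120 strongest candidates, which passed no reproducibility step, stood in for it, also among the 13 alternatives. With 1 replicate left out, that share ran from 2.37% to 2.96% and the candidate share from 43.2% to 47.9%. The median signal ran from 11.3 to 11.5, on the scale of the replicate lists, and candidates per 10 kb of collagen coding exon from 6.26 to 7.49. E-box classes were found at 66.7% of candidates (others 56.5%) within 100 bp. Candidates matched in both replicates were 18.02% (26.9%) within 100 bp and 43.2% (48.0%) by overlap. The alternatives to the 3′ end, within 200 bp of RNA genes, with nearest-end assignment and RNA genes together, and for coding exons were chosen after seeing the data. The unknown depth limits what a missing candidate can show.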
